A study of Mus musculus with 12 samples.

Results

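The genes described here are the MHC class II genes of the mouse and the genes that control and serve them. They were taken from a fixed list of 10 symbols, each matched to 1 Ensembl identifier present in both count tables, and so make up 10 of the 55335 genes counted. RNA came from cultured CT26, a colorectal cancer line of the mouse labelled as wild type, and from subcutaneous CT26 tumors. The 12 libraries form 4 groups of 3. Cultured cells had either the solvent DMSO or midostaurin, an inhibitor of several kinases, at 1 µM for 48 h. Tumors had either vehicle or midostaurin at 40 mg/kg, from day 7 after inoculation and over 2 weeks. The labels give neither strain, sex nor age of the mice, nor whether replicates were grown as independent cultures or animals. The p-values therefore reflect only how far these samples vary, which may be technical. Treated tumors are called midostaurin tumor 2, 3 and 4, as the tumor table numbers them.

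MHC class II molecules are pairs of an alpha and a beta chain that show peptides from engulfed or lysosomal protein to CD4+ T cells. H2-Aa and H2-Ab1 encode the chains of I-A, and H2-Eb1 the beta chain of I-E. Cd74 encodes the invariant chain, which fills the groove until the molecule reaches the endosome. H2-DMa pairs with H2-DMb1 or H2-DMb2 to exchange its remnant for peptide, H2-Oa is part of the DO molecule that restrains DM, and Ifi30 encodes GILT, a lysosomal reductase that opens disulfide bonds of antigens. Ciita encodes the coactivator that turns the class II genes on. It binds no DNA itself and is recruited by RFX, CREB and NF-Y proteins on the X and Y boxes of class II promoters. Dendritic cells, B cells and activated macrophages carry class II as a rule, and interferon gamma induces Ciita in many other cells.

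The 7 class II genes lie in 1 stretch of mm10 chromosome 17, from 34092340 to 34316674. Ciita lies on chromosome 16, from 10480059 to 10528418, and Ifi30 on chromosome 8, from 70762774 to 70766663. RefSeq promoter windows of the GRCm38.p6 build, reaching from 250 bases before a start site to 50 after it, were at hand for 7 of the 10 genes. The windows of 5 of them, H2-Aa, H2-Eb1, H2-DMb1, H2-DMb2 and H2-Oa, hold TGATTGG, a form of the Y box. The letters AAC, read here as part of an X box, stand 28 or 29 bases before its first base. That spacing was noticed in the sequences themselves, not set beforehand. It is shown because Ciita is recruited to X and Y boxes, with AAC and the Y box in capitals, 5′ to 3′. Whether Ciita acts through these stretches was not tested.

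H2-Aa: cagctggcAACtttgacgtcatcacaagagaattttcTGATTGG

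H2-Eb1: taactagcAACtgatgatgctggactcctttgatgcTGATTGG

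H2-DMb2: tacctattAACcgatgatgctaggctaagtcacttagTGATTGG

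H2-Oa: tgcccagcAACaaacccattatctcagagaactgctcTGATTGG

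These stretches lie at chr17:34287867-34287910 (minus strand), chr17:34305770-34305812, chr17:34145120-34145163 and chr17:34092297-34092340 (plus strand). TGATTGG begins 50 bases before the RefSeq start site in H2-Aa, 61 in H2-Eb1, 63 in H2-DMb1, 92 in H2-DMb2 and 45 in H2-Oa. In the gene annotation H2-DMb1 and H2-DMb2 begin further upstream, at 34153072 and 34143307, so their stretches lie inside the annotated genes. All 44 bases of the H2-DMb1 stretch lie in an annotated exon, and it is not shown. On either strand, TGATTGG occurs in 7.82% of all 32851 promoter windows of this length and the spaced pair in 0.253%. The Y box core ATTGG, which TGATTGG contains, occurs in 37.4% of windows. The X box consensus, searched as the planned pattern, occurs in 17.6%, and among the 7 genes with a window in H2-DMb1 alone. The window of Ifi30 and both windows of H2-DMa held no TGATTGG on the gene's strand, and 1 of those of H2-DMa held ATTGG. The sequence is that of the C57BL/6J reference. CT26 comes from a BALB/c mouse, whose class II alleles differ from it.

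The libraries held 34787389 to 38144039 counts in cells and 33399701 to 48109497 in tumors. Of 8 epithelial and colon markers, Krt18 and Krt20 were clearly expressed in the cell libraries, Krt8 and Cdx2 were low, Cdh1 and Vil1 lower still, and Epcam and Krt19 had 0 counts in all of them. Epcam is a usual marker of epithelial cells, so the label of an epithelial tumor line was not matched by it. The 6 T cell markers had at most 0.085 CPM together in any cell library.

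Class II transcripts were found in the tumors and were nearly absent from the cultured cells. Values are CPM, a gene's count relative to the library's total counts, scaled over all 12 libraries. H2-Aa, H2-Ab1 and H2-DMb1 had 0 counts in all 6 cell libraries, where a count of 0 allows up to 3 counts, or 0.0748 to 0.085 CPM in a control library.

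In control tumors H2-Aa measured 76.7, 40.1 and 48.5 CPM, and their mean of 55.1 CPM was at least 648-fold higher than the limit of 3 counts in a cell library. H2-Ab1 measured 69.7, 39.8 and 48.0 CPM, with a mean of 52.5 CPM that was at least 618-fold higher than that limit. H2-DMb1 measured 11.4, 9.43 and 11.5 CPM, and its mean of 10.8 CPM was at least 127-fold higher. H2-Eb1 had 6, 0 and 0 counts in control cells and 4, 0 and 0 in midostaurin cells, against 59.4, 29.5 and 39.5 CPM in control tumors. Its few cell counts all stand in library 1 of each group.

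Cd74 was present in every cell library at a low level, 1.22, 1.71 and 2.49 CPM with DMSO and 1.85, 1.5 and 1.56 CPM with midostaurin. In control tumors it measured 243, 161 and 232 CPM, a log2 difference of 6.88 ± 0.43 (SE; adjusted p = 4.26e-06, edgeR quasi-likelihood test, Benjamini-Hochberg). Ciita had 0, 14 and 9 counts in control cells and 4, 12 and 8 in midostaurin cells. In control tumors it measured 2.44, 1.69 and 1.52 CPM, higher by 3.15 ± 0.76 on the log2 scale (SE). This difference is a description, since Ciita passed the filter on low counts only through the tumors. The exons of Ciita overlap those of Dexi on the other strand by 329 bases, and Dexi measured 14.9 ± 4.97 CPM in control cells (SD, n = 3). The strand setting of the counting is not given in the sources used here, so part of the few Ciita counts in cells cannot be told apart from Dexi.

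H2-DMa and Ifi30 were the 2 members with a clear level in cultured cells. H2-DMa measured 3.64, 6.29 and 5.18 CPM in control cells and 23.2, 17.5 and 19.7 CPM in control tumors. Its exons share 360 bases with Brd2 on the other strand, which measured 355 ± 52.7 CPM in control cells and 341 ± 19.3 CPM in control tumors (SD, n = 3 each). Whether reads of Brd2 enter the H2-DMa counts was not tested. Ifi30 measured 36.8, 41.6 and 36.6 CPM in control cells and 81.0, 68.6 and 77.2 CPM in control tumors, a log2 difference of 0.98 ± 0.14 (adjusted p = 0.000407, edgeR). H2-Oa stayed at 4 to 22 counts per control tumor and 0 to 2 per control cell library.

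H2-DMa, Cd74 and Ifi30, the 3 genes with enough counts to be tested within the cells, all passed the edgeR threshold (adjusted p below 0.05) as higher in control tumors than in control cells, where 24.5% of the 16965 genes tested did so. Their groups did not overlap, as for 30.3% of all genes in that direction. The other 7 passed the filter on low counts only through the tumors, where they are high, so their calls in the same direction follow from that filter and are a description. Among them H2-Oa had the weakest call (adjusted p = 0.0197) and lost it without control cell library 2 or 3 (0.0689 and 0.0679) or control tumor 1 (0.0646). Bulk RNA does not tell fewer cells of a type from less RNA per cell.

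**Figure D1:**
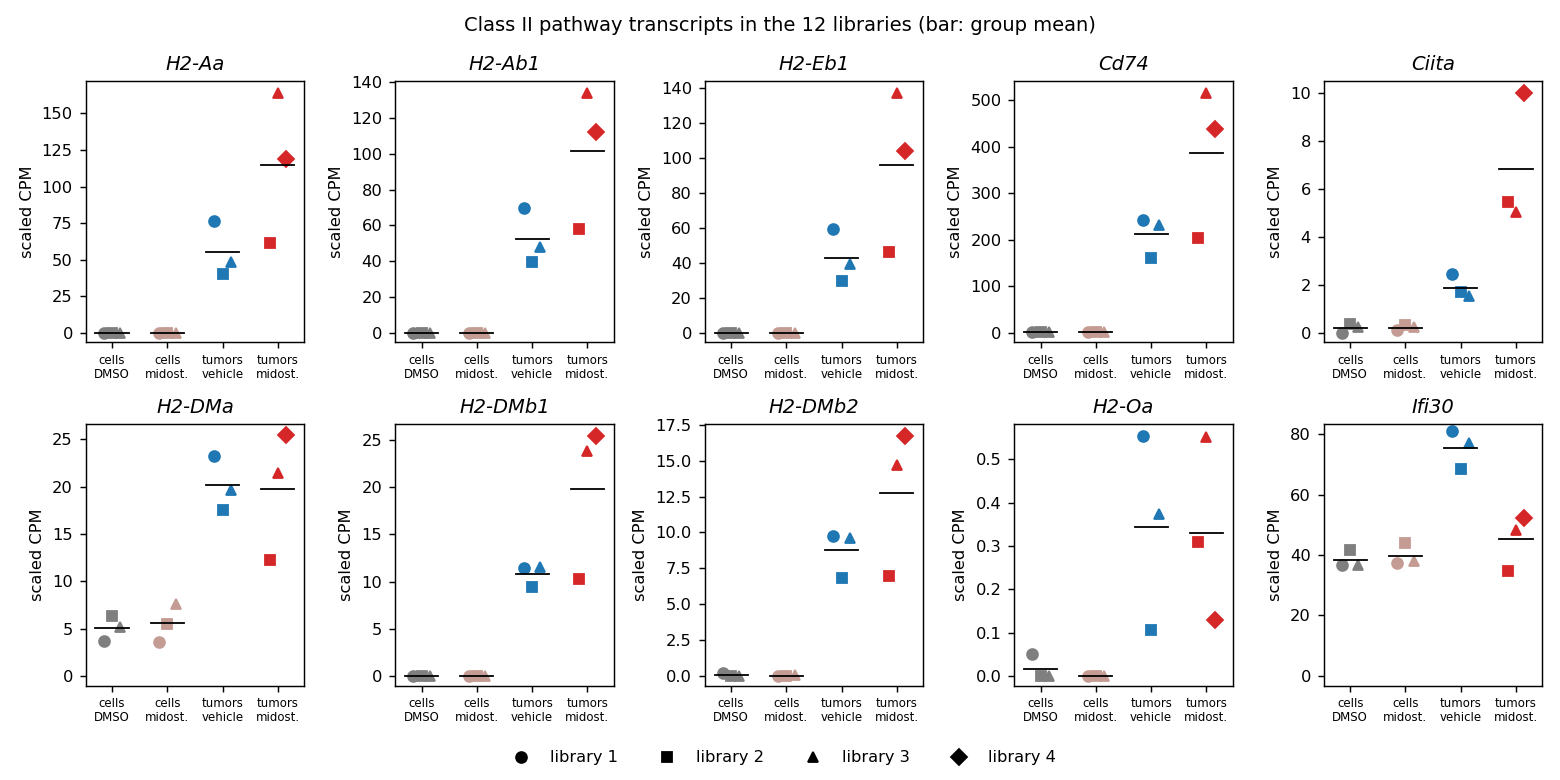
Scaled CPM of the 10 genes in each of the 12 libraries (vertical axes, linear, a separate range per gene), by group along the horizontal axis. Points are libraries, their shapes the library number, and bars the group means (n = 3). The cell libraries lie at or near 0 for all genes but H2-DMa and Ifi30. Midostaurin tumors 3 and 4 lie above all control tumors for H2-Aa, H2-Ab1, H2-Eb1, Cd74, H2-DMb1 and H2-DMb2, midostaurin tumor 2 does so for Ciita alone.

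Per kb of exon, the genes spanned a wide range within the control tumors. Cd74 was the most abundant at 126 ± 26.6 CPM per kb, followed by Ifi30 at 77.1 ± 6.45 (SD, n = 3 each), and their libraries did not overlap. The chain genes came next and overlapped one another: H2-Eb1 at 22.0 ± 7.81, H2-Ab1 at 20.4 ± 6.02 and H2-Aa at 14.5 ± 5.05 CPM per kb. The DM genes followed, with H2-DMb1 at 6.40 ± 0.69, H2-DMa at 5.84 ± 0.836 and H2-DMb2 at 5.01 ± 0.942 CPM per kb. H2-DMa overlapped both beta chains, while the lowest H2-DMb1 value, 5.61, lay just above the highest of H2-DMb2, 5.58. H2-Oa at 0.245 ± 0.159 and Ciita at 0.197 ± 0.0513 CPM per kb were lowest and overlapped. The exon length is the union over all annotated transcripts, 9535 bases for Ciita, which lowers the value of a gene with long rare transcripts. With midostaurin the order differed in 3 places. Ciita, at 0.716 ± 0.291 CPM per kb, stood above H2-Oa, at 0.234 ± 0.151, without overlap. H2-Eb1, at 49.3 ± 23.8, stood above Ifi30, at 46.1 ± 9.44, and H2-DMb2, at 7.32 ± 2.95, above H2-DMa, at 5.72 ± 1.96, with overlap in the last 2 pairs.

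**Figure D2:**
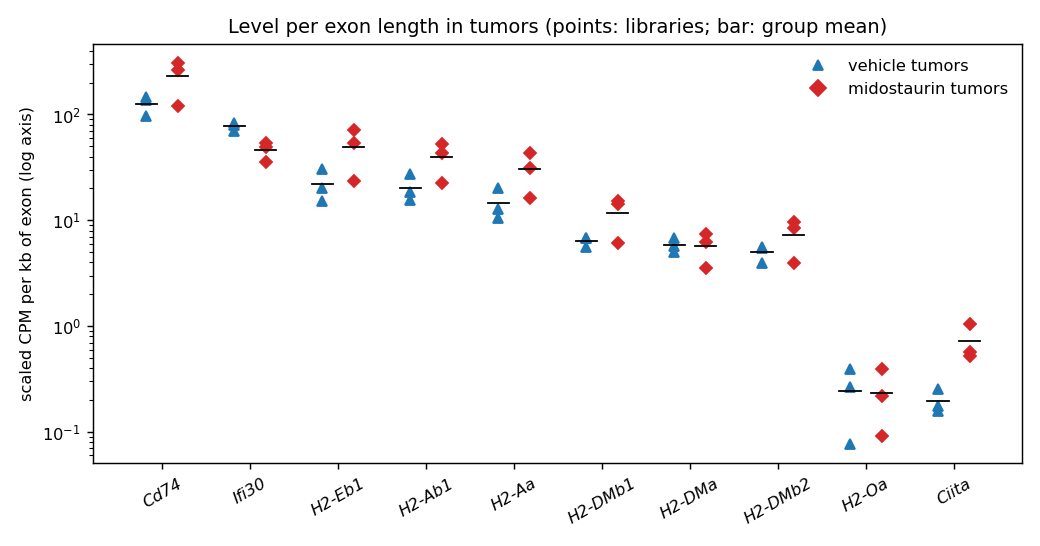
Scaled CPM per kb of exon (vertical axis, log scale) of the 10 genes in the 3 vehicle tumors (triangles) and 3 midostaurin tumors (diamonds). Bars are group means. Cd74 leads in both groups, the 3 chain genes overlap one another, and Ciita and H2-Oa are lowest in both.

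Ciita separated the treated tumors from the controls. It measured 2.44, 1.69 and 1.52 CPM in control tumors 1, 2 and 3 and 5.44, 5.03 and 10.0 CPM in midostaurin tumors 2, 3 and 4. Every treated tumor lay above every control. The log2 fold change was 1.86 ± 0.34 (SE; 95% interval 1.05 to 2.67), with an adjusted p of 0.0841 in the edgeR fit over 16094 genes, which misses the threshold, and of 5.04e-05 with DESeq2. Dexi, its neighbour on the other strand, measured 11.7 ± 0.324 CPM in controls and 14.9 ± 2.63 CPM in treated tumors (SD, n = 3 each), without overlap. The share of Dexi reads among those of Ciita was not tested.

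The chains of I-A and I-E and the invariant chain shared a different pattern. H2-Aa measured 76.7, 40.1 and 48.5 CPM in controls and 61.5, 164 and 119 CPM with midostaurin. Midostaurin tumors 3 and 4 were above all controls, while midostaurin tumor 2 lay below control tumor 1, so the groups overlapped. H2-Ab1 measured 58.0, 134 and 112 CPM and H2-Eb1 45.9, 137 and 104 CPM in the treated tumors, in the same order. Cd74 measured 203, 515 and 438 CPM with the drug, against 243, 161 and 232 CPM, and midostaurin tumor 2 lay below control tumors 1 and 3.

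The log2 fold changes of these genes were 1.06 ± 0.38 for H2-Aa, 0.95 ± 0.33 for H2-Ab1, 1.16 ± 0.42 for H2-Eb1 and 0.86 ± 0.34 for Cd74 (SE). Their adjusted p-values lay between 0.19 and 0.227 with edgeR and between 0.0208 and 0.0431 with DESeq2. Leaving out 1 tumor at a time, the H2-Aa value was lowest without midostaurin tumor 3, at 0.71, and highest without control tumor 1, at 1.39.

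Of the DM genes, the beta chains were highest in midostaurin tumors 3 and 4, as the class II chains were, and the alpha chain was not set apart in this way. H2-DMb1 measured 11.4, 9.43 and 11.5 CPM in controls and 10.3, 23.8 and 25.4 CPM with midostaurin (log2 fold change 0.88 ± 0.33, edgeR adjusted p = 0.203). H2-DMb2 measured 9.75, 6.85 and 9.64 CPM and 6.93, 14.7 and 16.7 CPM (0.55 ± 0.33, adjusted p = 0.401). In both genes midostaurin tumors 3 and 4 were above all controls and midostaurin tumor 2 was within them. The transcripts of the pair share 27.2% of the 50-base stretches of H2-DMb1 and 21.2% of those of H2-DMb2, so reads can pass between them, and their summed counts gave 0.74 ± 0.32 (adjusted p = 0.26). H2-DMa measured 23.2, 17.5 and 19.7 CPM in controls and 12.3, 21.4 and 25.5 CPM with midostaurin, with no shift of the mean beyond its error (-0.03 ± 0.26, 95% interval -0.65 to 0.59).

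Ifi30 was the 1 member with lower values in every treated tumor. It measured 81.0, 68.6 and 77.2 CPM in controls and 34.8, 48.4 and 52.4 CPM with midostaurin, so the groups did not overlap. The log2 fold change was -0.74 ± 0.16 (95% interval -1.12 to -0.37), with an adjusted p of 0.0943 with edgeR and 0.000818 with DESeq2. H2-Oa had 22, 4 and 16 counts in controls and 12, 18 and 6 with the drug, too few to show a difference at this depth (95% interval -1.80 to 1.61).

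By count, 0 of the 10 genes passed the edgeR threshold in tumors, where 0.0435% of all genes did, and 7 had an unadjusted p below 0.05, where 19.9% of all genes did. DESeq2 called 6 of the 10, where it called 10.4% of the genes given an adjusted p. It called 5 as higher (6.3% of genes) and Ifi30 as lower (4.13%). The groups did not overlap for Ciita, as higher, and for Ifi30, as lower, where 13.5% of all genes did so in each direction. The median log2 fold change of the 10 was 0.87, beside -0.01 over all genes.

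**Figure D3:**
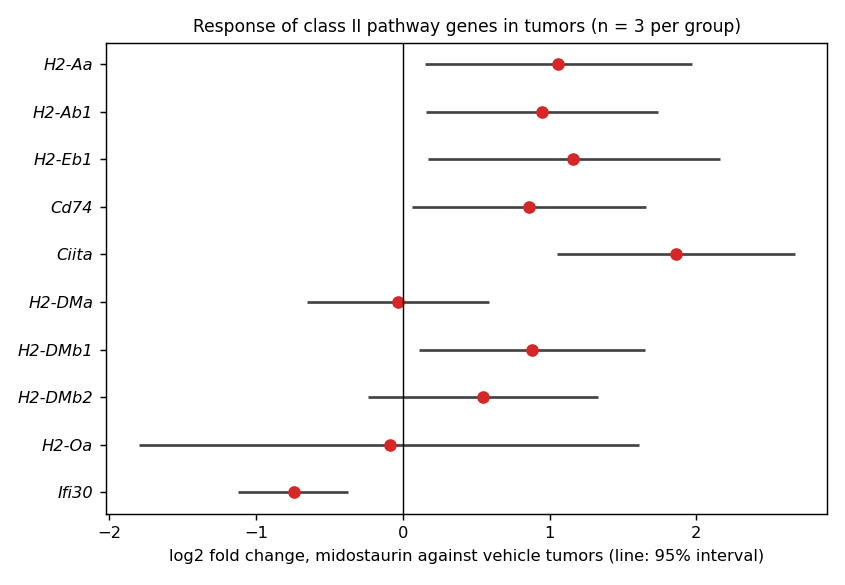
Log2 fold change of midostaurin against vehicle tumors (horizontal axis) for the 10 genes, n = 3 per group. Points are edgeR estimates and lines their 95% intervals. The intervals of Ciita, H2-Aa, H2-Ab1, H2-Eb1, Cd74 and H2-DMb1 lie above 0, that of Ifi30 below, and those of H2-DMa, H2-DMb2 and H2-Oa cross it. None of the 10 passed adjustment over all genes.

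In cultured cells the drug was not accompanied by a detectable shift in any of these genes. H2-DMa, Cd74 and Ifi30 had enough counts to be tested. Ifi30 measured 37.2, 44.0 and 38.0 CPM with midostaurin, against 36.8, 41.6 and 36.6 CPM, a log2 fold change of 0.05 ± 0.10. Those of H2-DMa and Cd74 were 0.13 ± 0.33 and -0.14 ± 0.31, with edgeR adjusted p = 1 for each. Of the 14538 genes tested in cells 0% passed, 0.516% had an unadjusted p below 0.05, of which none was a member, and DESeq2 called 0.0138% and none of the 3. The 95% intervals were -0.20 to 0.29 for Ifi30, -0.67 to 0.94 for H2-DMa and -0.91 to 0.62 for Cd74. These fits leave out the library number, and same-numbered cell libraries resembled each other. With the number as a replicate block the errors were smaller: 0.05 ± 0.05 for Ifi30, 0.11 ± 0.17 for H2-DMa and -0.10 ± 0.29 for Cd74. In that edgeR fit 8 of all genes passed and 0 of these 3.

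An interaction over all 12 libraries compared what midostaurin went with in tumors and in cells. It passed for 0 of the 7 genes for which it can be estimated, where 0.00589% of genes passed with edgeR and 0.591% with DESeq2. An unadjusted p below 0.05 was found for Ifi30 alone, where 6.08% of genes had one. It was -0.80 ± 0.20 on the log2 scale for Ifi30 (edgeR adjusted p = 0.487) and 1.00 ± 0.50 for Cd74 (0.84). For Ciita it was 1.80 ± 1.06 (0.886), an estimate that rests on at most 14 counts per cell library. For H2-Aa, H2-Ab1 and H2-DMb1 no difference can be estimated, since no cell library held a count.

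Across the 6 tumors, the level of each gene was compared with that of Ciita. On Ciita the tumors form 2 separate sets, the controls and the treated, so a correlation over all 6 contains the difference between the groups. On log2(CPM + 0.5), Pearson's r with Ciita was 0.74 for H2-Aa, 0.76 for H2-Ab1, 0.74 for H2-Eb1, 0.68 for Cd74, 0.74 for H2-DMb1 and 0.61 for H2-DMb2. Spearman's rho for these 6 genes was 0.43 to 0.66. H2-DMa had r = 0.13 and rho = 0.31, H2-Oa -0.16 and -0.14, and Ifi30 -0.72 and -0.66. None passed an exact two-sided permutation test adjusted over the 9 genes (adjusted p from 0.225 to 0.815 for r and from 0.394 to 0.803 for rho, n = 6). Without midostaurin tumor 4 and control tumor 3, which lay farthest from the Ciita median, r was 0.38 to 0.64 for the same 6 genes, -0.37 for H2-DMa, 0.49 for H2-Oa and -0.86 for Ifi30 (n = 4).

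With the group means taken off, r was 0.28 to 0.49 for those 6 genes, while it was 0.63 for H2-DMa and 0.56 for Ifi30 (exact permutation within groups, adjusted p = 0.806 for all 9, n = 6). Within the treated group Ciita and the chain genes were not in the same order. Midostaurin tumors 2 and 3 had nearly the same Ciita level, 5.44 and 5.03 CPM, while H2-Aa measured 61.5 and 164 CPM. H2-Aa amounted to 11.3 and 11.9 times Ciita by CPM in midostaurin tumors 2 and 4, and to 23.7 to 32.6 times in the other 4 tumors.

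Markers of immune cells also differed between these tumors. The 12 macrophage markers summed to 1443 to 2523 CPM in control tumors and 622 to 1357 CPM in treated ones, and to 6.91 to 27.0 CPM in cells, where C1qa, C1qc, Adgre1 and Cd163 had 0 counts. All 12 had negative log2 fold changes in tumors, with a median of -0.84, and 0 passed with edgeR. DESeq2 called 4 as lower, where it called 4.13% of the genes given an adjusted p. Mrc1, Trem2 and Fcgr1 had the smallest p, with log2 fold changes of -1.68 ± 0.51, -0.89 ± 0.19 and -0.66 ± 0.20. The 12 dendritic cell markers summed to 181 to 255 and 149 to 165 CPM, most of it Fscn1, which cultured CT26 cells also carry. Fscn1 alone had means of 190 CPM in control and 130 CPM in treated tumors. Of the 10 dendritic cell markers tested, 7 had positive and 3 negative log2 fold changes, with a median of 0.48, and 0 passed with edgeR. Cd209a and Ccl17 were too low to test. The 5 B cell markers summed to 1.28 to 2.87 and 0.795 to 1.78 CPM. The 6 T cell markers summed to 18.7 to 29.8 and 14.6 to 31.5 CPM. Neutrophil markers summed to 650 CPM in midostaurin tumor 3 alone. They summed to 28.9 and 17.8 CPM in midostaurin tumors 2 and 4, and to 13.0 to 26.0 CPM in controls.

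Within each group the class II level followed the macrophage markers from tumor to tumor. The mean log2 value of H2-Aa, H2-Ab1, H2-Eb1 and Cd74 less that of the macrophage markers was -0.18, -0.43 and -0.38 in controls and 1.44, 1.65 and 1.58 in the treated tumors. It spanned 0.25 within the controls and 0.21 within the treated tumors, and their means lay 1.89 apart, a comparison chosen after the values were seen. Less the dendritic cell list, the class II mean was 4.83, 4.82 and 5.28 in controls and 5.05, 5.93 and 5.87 in treated tumors, so the groups overlapped. They also overlapped less the neutrophil list. Less the T cell list it was 4.44, 4.13 and 4.03 against 4.93, 5.41 and 5.22, without overlap, and less the B cell list there was none either. With group means taken off, the class II mean correlated at 0.99 with the macrophage list, 0.97 with the T cell list, 0.74 with the dendritic cell list and 0.33 with Ciita (n = 6, description only, since all share the libraries' make-up).

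Relative to the macrophage markers, 9 of the 10 genes were higher in every treated tumor than in every control, and Ifi30 was not. This holds for 63.7% of all tested genes, and the macrophage markers themselves had lower values in treated tumors. The relative difference was 0.94 at the median of all genes, 1.95 for H2-Aa, 1.85 for H2-Ab1, 2.02 for H2-Eb1, 1.72 for Cd74 and 2.53 for Ciita, against 0.87 for H2-DMa and 0.20 for Ifi30, on the log2 scale. The size of the difference depends on the marker. As a CPM ratio to each of the 12 markers alone, H2-Aa was separate in this way for 12 of them. H2-Ab1 and H2-Eb1 were so for 11 each and Cd74 for 10. The mean ratio was 2.15-fold higher in treated tumors for Cd74 to Cd68, the smallest, and 17.3-fold for H2-Aa to Cd163, the largest. That largest value rests on low Cd163 levels, 0.231 to 6.01 CPM in treated tumors, with 9 counts in the lowest. There the ratio of H2-Aa to Cd163 ran from 27.3 to 266, against 4.35 to 11.2 in controls. The part of macrophage content in the class II values was not tested.

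**Figure D4:**
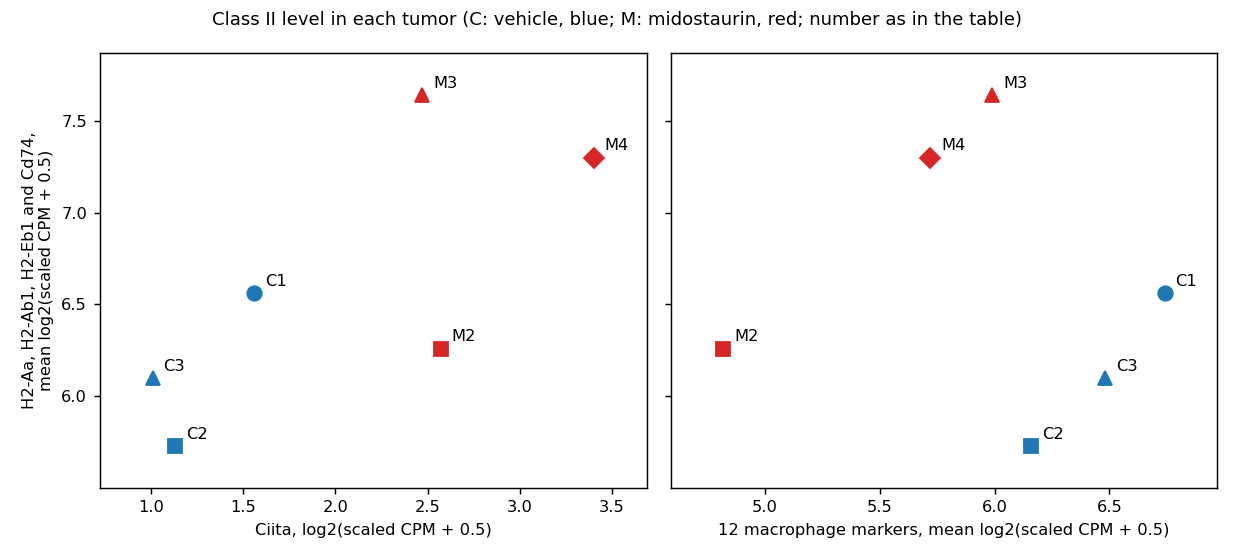
Mean log2(scaled CPM + 0.5) of H2-Aa, H2-Ab1, H2-Eb1 and Cd74 in each tumor (vertical axis) against Ciita (left) and the mean of 12 macrophage markers (right), both on the log2 scale. Blue points are control tumors 1 to 3 and red points midostaurin tumors 2 to 4. On the right each group forms its own rising line, the red one at lower macrophage values. On the left midostaurin tumors 2 and 3 have nearly the same Ciita value and differ by 1.38 in class II.

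Among the other genes of the pathway, the factors on class II promoters had values near 0. Of Rfx5, Rfxap, Rfxank, Nfya, Nfyb, Nfyc and Creb1, 3 had positive and 4 negative log2 fold changes in tumors, all between -0.11 and 0.11, and 0 passed with edgeR or DESeq2. Rfx5 and Rfxap, subunits of RFX with Rfxank, had 0.11 ± 0.16 and -0.11 ± 0.13, and Rfxank 0.08 ± 0.14. The NF-Y subunits Nfya, Nfyb and Nfyc had 0.01 ± 0.09, -0.08 ± 0.09 and -0.06 ± 0.09, and Creb1 -0.08 ± 0.09. All 7 were expressed in cultured cells as well.

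All 7 genes listed for the interferon gamma axis had positive log2 fold changes in tumors, with a median of 0.29, and 0 passed with edgeR. DESeq2 called 2 of them as higher, where it called 6.3% of the genes given an adjusted p. These were Irf1, a transcription factor that acts on the Ciita gene, and Jak2, a kinase of the receptor. Irf1 measured 98.0, 78.9 and 62.3 CPM in controls and 213, 183 and 130 CPM with midostaurin. Its groups did not overlap, as for 13.5% of all genes in that direction. Its log2 fold change was 1.14 ± 0.23, with an adjusted p of 0.0907 (edgeR) or 5.96e-05 (DESeq2). Jak2 was at 0.66 ± 0.23 (0.183 and 0.0392). Ifng, the cytokine itself, lay at 0.478 to 0.698 CPM in controls and 0.667 to 0.889 CPM in treated tumors (0.31 ± 0.32). Ifngr1, Ifngr2, Jak1 and Socs1 had values of 0.08 ± 0.20, 0.23 ± 0.17, 0.10 ± 0.11 and 0.29 ± 0.24.

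H2-Ea-ps, annotated as a pseudogene because the C57BL/6J reference strain does not transcribe the alpha chain of I-E, was abundant in the tumors. It had 0 counts in all 6 cell libraries and measured 54.1, 31.2 and 32.8 CPM in controls and 41.5, 124 and 88.6 CPM with midostaurin, 0.83 to 1.06 times H2-Eb1 in every tumor. Its log2 fold change was 1.10 ± 0.40 (adjusted p = 0.20 with edgeR and 0.0254 with DESeq2). H2-Ob, the partner chain of H2-Oa, was at 0.233 to 0.277 and 0.308 to 0.889 CPM (1.09 ± 0.49, edgeR adjusted p = 0.272), and H2-Eb2 was too low to test.

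A search for like genes took other genes tested in tumors with a mean of at least 5 CPM. It left out unnamed and predicted genes, clone names, and immunoglobulin or T cell receptor segments. Of the 10357 genes searched, H2-Ea-ps was the one most like the mean of the 4 class II genes over the 6 tumors (Pearson's r = 0.99, n = 6). Fblim1, Cacul1, Smim8 and Wdr37 came next, at 0.973, 0.97, 0.969 and 0.966. The 5 genes most like Ciita were Umad1, Mkrn1, Cnn3, Mras and C2cd5, with r from 0.996 to 0.982. Umad1 measured 15.7, 14.6 and 14.8 CPM in controls and 18.9, 18.4 and 21.5 CPM with midostaurin. With 6 points and so many genes searched, an r of this size is a description of these tumors.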

How the data were processed

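The authors deposited whole-number counts per Ensembl gene, separately for cells and tumors. FastQC 0.11.2, Bowtie2 2.3.4, RSEM and the mm10 genome are named in the submitters' processing notes. Annotation and strand setting are not given in the sources used here, and RSEM divides reads among similar genes by an estimate. Treated tumors carry numbers 1 to 3 in the labels and 2 to 4 in the file, so tumor 4 is known by its group only.

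Counts were tested with edgeR 4.0.16 (R 4.3.3): filterByExpr, TMM, quasi-likelihood F-test, Benjamini-Hochberg over all genes tested, threshold 0.05. Cells and tumors were fitted apart, and the interaction and the tumor against cell comparison in 1 fit of all 12 libraries. SEs and 95% intervals come from these fits. Printed CPM were scaled by TMM over all 12 libraries. DESeq2 1.42.0 and limma-voom 3.58.1 were alternatives, beside other scalings, no filter, each library left out and a replicate block. Deviations of same-numbered cell libraries correlated at 0.90, 0.72 and 0.70 across genes, and libraries 2 and 3 also across numbers, at 0.55 and 0.53. The labels name no pairing, and the printed values come from fits without the block. The fitting code was run on simulated counts with planted fold changes, the same spread setting for every gene and unpaired libraries. That run checks the code, not how the tests behave at the spread of these samples. Symbols and exons are from GENCODE M21. Reads of CT26, a BALB/c line, were aligned to another strain, and what this does to class II levels was not tested. The members, the other gene lists and the rule for named genes (all members, promoter factors, interferon gamma axis and other class II genes, up to 3 of each marker list by smallest p, and 5 genes most like Ciita and most like the class II mean) were chosen with earlier results of these data known. Protein sequences were not used here. H2-Ea, Marchf1 and Marchf8 matched no identifier by those symbols. A further gene of the interferon gamma axis is not reported here and was left out of that list.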

Additional observations from a re-analysis of the deposited data

How the results depend on the processing

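With 3 samples a group, the result that depends most on the tool is the tumor response: 0 of the 10 genes passed with edgeR under every scaling, without the low-count filter, with the replicate block (0), with limma-voom and without any 1 tumor (0 to 0), and 6 passed with DESeq2. The cause of that difference was not tested. Counts of 0 for the cell response and for the difference, and of 0 for the relation to Ciita, were the same in all alternatives. Between tumors and cells H2-DMa, Cd74 and Ifi30 passed without any 1 library, with edgeR adjusted p of at most 0.00431, 6.86e-05 and 0.00273. With the other members 9 to 10 genes passed. Those others entered the fit only through the tumors, so their calls are a description. In these fits 6007 to 8013 of all genes passed, in either direction. The replicate block changed no call among the 10 genes. In tumors, where only numbers 2 and 3 are shared, it gave H2-Oa a log2 fold change of 0.97 in place of -0.09. Other signs turned only in results that did not pass their test. Without any 1 library the tumor values ranged from -0.25 to 0.21 for H2-DMa and from -0.66 to 0.43 for H2-Oa. The cell values ranged from -0.15 to 0.36 for H2-DMa, -0.36 to 0.16 for Cd74 and -0.02 to 0.10 for Ifi30. The differences ranged from -2.42 to 5.29 for H2-Eb1, -2.16 to 5.06 for H2-DMb2, -0.09 to 3.11 for H2-Oa and -0.40 to 0.12 for H2-DMa, the first 3 resting on at most 8 counts per cell library. The correlation with Ciita ranged from -0.39 to 0.79 for H2-DMa and from -0.62 to 0.39 for H2-Oa, and for Ifi30 it was -0.72 over all tumors and 0.56 for deviations from the group means. Ciita kept a positive log2 fold change in tumors in all 13 alternatives, 1.48 to 2.10, with adjusted p from 5.04e-05 to 0.416.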

Other observations

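Of 10 genes of class II processing and turnover, 4 had positive and 6 negative log2 fold changes in tumors, with a median of -0.09, and 0 passed with edgeR. Ctsl, a lysosomal protease, had 0.35 ± 0.11 (adjusted p = 0.169 by edgeR, 0.0305 by DESeq2), and its groups did not overlap. Lgmn, another, had -0.60 ± 0.29 and March8, a ubiquitin ligase, 0.18 ± 0.09. Cd83, named after its values were seen, had 0.95 ± 0.68, with 3.37 ± 1.09 CPM in controls and 6.53 ± 6.36 CPM in treated tumors (SD, n = 3 each). Of the costimulatory genes Cd40, Cd80, Cd86 and Icosl, 0 passed with either tool, and Icosl, Cd80 and Cd86 had -0.68 ± 0.37, 0.17 ± 0.19 and 0.13 ± 0.24. Cd80 was also present in cultured cells, while Cd40, Cd86 and Icosl had 0 CPM there.

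Among the dendritic cell markers, Ccl22, a chemokine of mature dendritic cells, measured 0.822 ± 0.49 CPM in controls and 2.64 ± 0.913 CPM with midostaurin (SD, n = 3 each; log2 fold change 1.68 ± 0.53, adjusted p = 0.157 by edgeR, 0.0322 by DESeq2), and its groups did not overlap. Fscn1, an actin-bundling protein, had -0.54 ± 0.13 (0.115 by edgeR, 0.00739 by DESeq2), also without overlap, and Ccr7 had 1.45 ± 0.73. The 3 B cell markers tested had 1 positive and 2 negative log2 fold changes, with a median of -0.41. Cd79a had -1.85 ± 0.49 (adjusted p = 0.123 by edgeR, 0.0317 by DESeq2) without overlap, and cultured control cells also carried it, at a mean of 0.421 CPM. The 6 T cell markers had 2 positive and 4 negative values, with a median of -0.11, and Cd4 had 0.39 ± 0.44.

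Of 8 epithelial and colon markers, 6 were tested in tumors. Among those, 2 had positive and 4 negative log2 fold changes, with a median of -0.82. Krt20, an intestinal keratin, measured 260 ± 109 CPM in control tumors and 537 ± 125 CPM in treated ones (SD, n = 3 each) without overlap (1.05 ± 0.31, adjusted p = 0.143 by edgeR, 0.00369 by DESeq2). Cdx2 had -1.56 ± 0.44. The 5 fibroblast markers had 3 positive and 2 negative log2 fold changes, with a median of 0.11. Of these Dcn had 1.05 ± 0.37 (0.192 by edgeR, 0.022 by DESeq2), and cultured control cells also carried it, at 11.4 ± 10.1 CPM (SD, n = 3). Of the 4 endothelial markers 0 passed with either tool.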
